A study of Drosophila melanogaster with 6 samples.

Results

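The mitochondrial ribosomal protein genes of Drosophila melanogaster were taken as all genes whose symbol starts with mRpL or mRpS followed by a digit, for the large and the small subunit of the ribosome inside mitochondria. 69 such genes, 44 of the large and 25 of the small subunit, were measured among 11982 genes with a probe set that names them alone. The RefSeq gene table lists 73 genes with such symbols, and mRpL34, mRpL37, mRpL53 and mRpS10 were not analysed here, since no probe set named them alone. mRpL47 and mRpS11 had 2 probe sets each, and every gene is represented by the one with the highest mean over all arrays. The samples were whole embryos of stages 11 to 16, collected and aged at 25 degrees and sorted by a flow instrument for large particles before RNA was extracted. 3 samples came from the Oregon R strain, a standard laboratory wild type, and 3 from sage mutant embryos of matched age. Sage, a transcription factor with a helix-loop-helix domain, is made in the salivary gland of the embryo, and the study asked which genes depend on it. Each sample was hybridised to 1 Affymetrix array, and values are log2 signals per probe set. The sage allele, and any difference in strain background between the mutants and Oregon R, are not given in the sources used here, and strain and genotype cannot be told apart. The gland is a small part of the embryo, and in whole embryos fewer cells of a type and less RNA per cell cannot be told apart.

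Mitochondria keep a small genome of their own, which in animals encodes core subunits of the respiratory chain and ATP synthase together with the RNAs of the mitochondrial ribosome. All proteins of that ribosome are encoded in the nucleus, made in the cytosol and imported. The large subunit forms peptide bonds and releases the new chain at the inner membrane, and the small subunit holds the messenger RNA and decodes it. Some of the proteins are relatives of bacterial ribosomal proteins, while others are found in mitochondria only.

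sage was lower in every mutant array, at 5.28, 5.44 and 5.12 against 8.21, 8.61 and 7.93 in the wild type arrays. It fell 7.83-fold (limma adjusted p = 0.00125). The array medians lay between 5.89 and 6.01. At control probe sets, the 5′ end was dimmer relative to the 3′ end in the mutants, by −3.68 ± 0.61 on the log2 scale (SD, n = 3), than in wild type, by −1.84 ± 0.08 (SD, n = 3). Wild type replicate 2 correlated less well with its own group than any other array did, at 0.977 against 0.985 to 0.993. Both facts bear on how the results below can be read. Fits with the 5′ minus 3′ value as a covariate, and fits without 1 array, are given below. The part of RNA quality in the results was not tested.

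With all 6 arrays, the mean level of the mitochondrial ribosomal protein genes differed between the genotypes by less than the spread between arrays. Their mean log2 signal was 10.35 ± 0.31 for wild type and 10.36 ± 0.14 for the mutants (SD, n = 3 each). The median log2 change, mutant minus wild type, was 0.05 over the 69 genes, beside −0.01 over all 11982 genes. 29 genes had a negative and 40 a positive change, and 49 of 69, or 71%, changed by less than 0.25 in either direction, against 60.5% of all genes. These shares are descriptions, since genes are not replicates. The direction of the group depended on single arrays: without wild type replicate 2 the median log2 change was 0.27 for the large and 0.14 for the small subunit, and without wild type replicate 3 it was −0.06 and −0.11. With the 5′ minus 3′ value of the controls as a covariate, the medians were 0.48 and 0.30. That value did not overlap between the genotypes, so the fit separates it poorly from genotype, and these medians do not show a rise. The mean signals of the single genes over all arrays lay between 8.67 for mRpL45 and 11.41 for mRpL30. Signals of different probe sets depend on their probes and do not rank the genes by transcript amount.

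1 of the 69 genes fell and 1 rose at a limma adjusted p under 0.05, where p-values were adjusted over all 18769 probe sets. That is 1.45% in each direction, beside 2.1% of all genes lower and 2.88% higher, and the share called is thus no larger than among genes at large. Over all probe sets, the shares called were 1.93% lower and 2.1% higher. At an unadjusted p under 0.05, 4 members were lower and 3 higher, or 5.8% and 4.35%, against 10.3% and 12.1% of all genes. The wild type and mutant arrays did not overlap for 8 members that were lower and 5 that were higher, or 11.6% and 7.25%, against 13.4% and 12.9% of all genes.

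**Figure D1:**
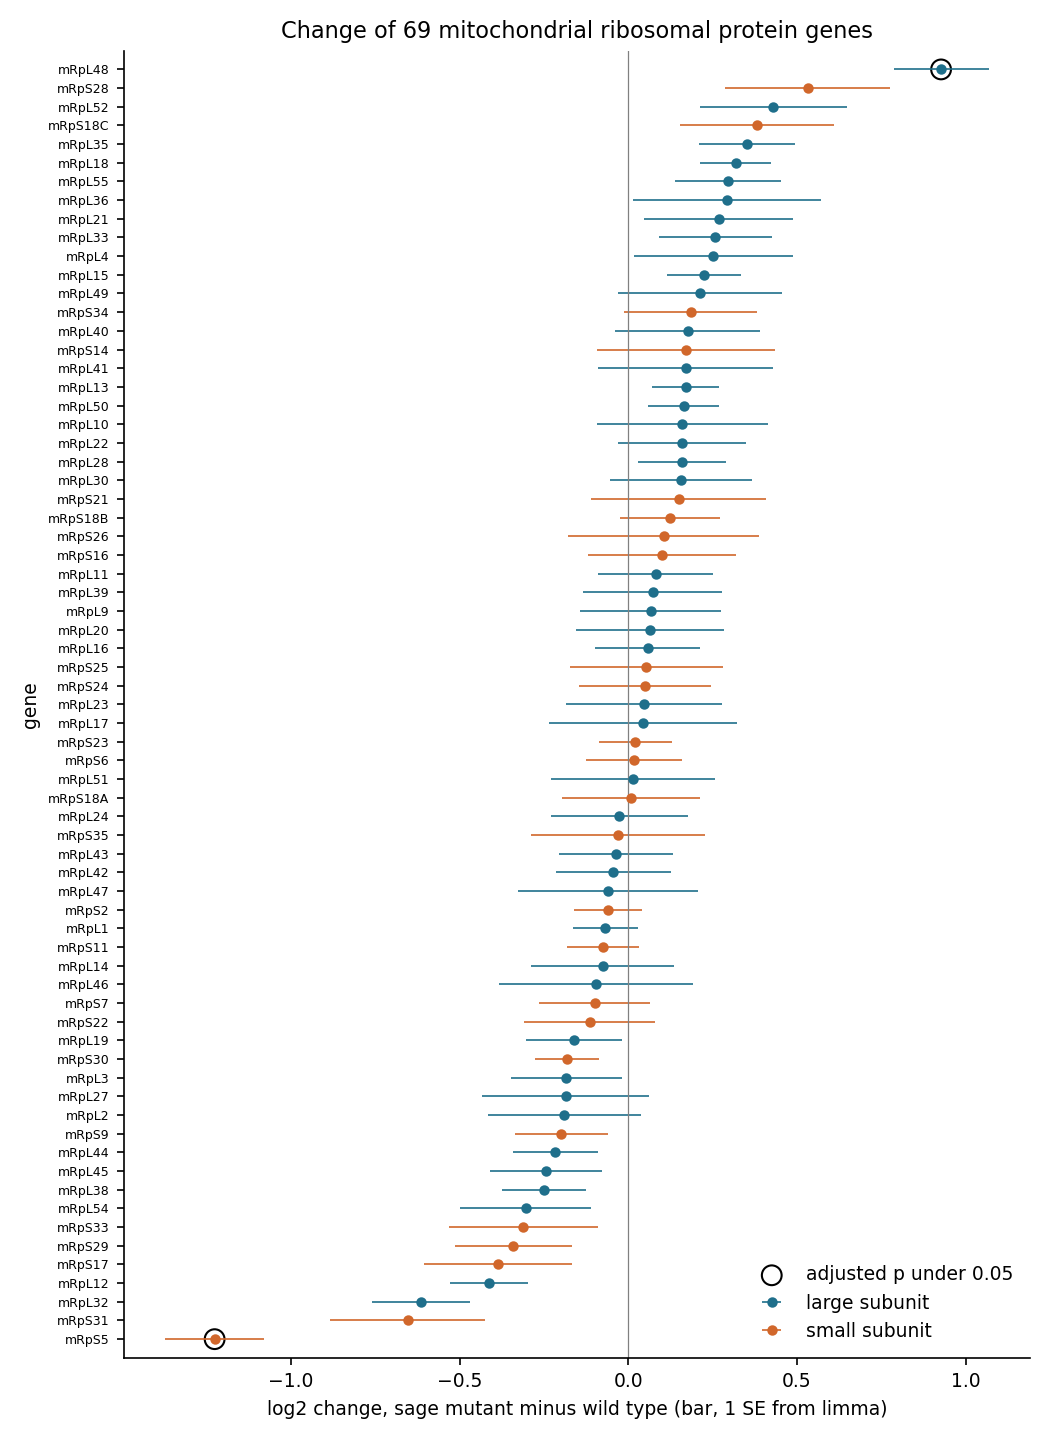
The log2 change in signal, sage mutant minus wild type, is plotted for each of the 69 genes in order of size, with bars of 1 SE from limma and colours for the subunit. mRpS5 at −1.23 and mRpL48 at 0.93, which are ringed, stand at the ends, and 49 genes lie within 0.25 of zero.

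The gene that fell was mRpS5 (CG40049, chromosome arm 3L), whose protein is the relative of bacterial S5, a small subunit protein at the site where messenger RNA enters the ribosome. It had log2 signals of 11.66, 12.02 and 11.71 in wild type (replicates 1 to 3, the order of all such lists of values) and 10.70, 10.65 and 10.36 in the mutants. The highest mutant array thus lay well below the lowest wild type array. Wild type averaged 11.80 ± 0.20 and the mutants 10.57 ± 0.19 (SD, n = 3 each), a fall of 2.34-fold (log2 change −1.23, SE 0.15, limma adjusted p = 0.0109). It was past the threshold with the replicate number as a block too, but had limma adjusted p-values of 0.057 without mutant replicate 2 and 0.0571 without mutant replicate 3, at log2 changes of −1.27 and −1.12. It was the only member with a change beyond 1 on the log2 scale. Of its neighbours in the RefSeq gene order, the log2 change was −0.08 for nvd and −0.54 for scro (limma adjusted p = 0.827 and 0.414), and it was −0.50 for Snap25, the gene beyond nvd (limma adjusted p = 0.176).

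The gene that rose was mRpL48 (CG17642, chromosome arm 2L), whose protein has no bacterial relative and in mammals lies in the central protuberance of the large subunit. Its log2 signal was 9.16, 9.20 and 8.84 for wild type and 9.82, 10.03 and 10.14 for the mutants. No mutant array overlapped a wild type array. The means were 9.07 ± 0.20 and 9.995 ± 0.161 (SD, n = 3 each), a rise of 1.90-fold (log2 change 0.93, SE 0.14, limma adjusted p = 0.0231). With the replicate number as a block the limma adjusted p was 0.0548. It was 0.0766 without wild type replicate 1, 0.0591 without wild type replicate 3, 0.105 without mutant replicate 2 and 0.115 without mutant replicate 3, with the log2 change between 0.81 and 0.98 in these fits. With the 5′ minus 3′ value of the controls as a covariate, limma gave adjusted p-values of 0.359 for mRpS5 and 0.337 for mRpL48, and 0 of 18769 probe sets passed. In the RefSeq table the gene spans of mRpL48 and frtz overlap, and the log2 change of frtz was −0.16 (limma adjusted p = 0.428). For Rim2, the gene beyond frtz in that order, the log2 change was 0.99 (limma adjusted p = 0.0533).

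Among the other small subunit genes with the most negative values, mRpS31, a protein found in mitochondria only, had 10.86, 11.41 and 10.61 in wild type and 10.15, 10.59 and 10.19 in the mutants. The groups did not overlap, but mutant replicate 2 came close to wild type replicate 3, and the log2 change of −0.65 (SE 0.23) had a limma adjusted p of 0.195. mRpS17, whose bacterial relative binds ribosomal RNA, had a log2 change of −0.39 and mRpS29, a GTP-binding protein called DAP3 in mammals, of −0.34 (limma adjusted p = 0.427 and 0.368). mRpS29 was nearly constant in the mutants, at 9.40, 9.40 and 9.38, and spread over 9.68, 10.10 and 9.42 in wild type. mRpS33 had −0.31 (limma adjusted p = 0.539), with overlapping groups.

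At the other end of the small subunit, mRpS28 had 9.97, 10.69 and 9.83 in wild type and 10.50, 10.93 and 10.66 in the mutants. Wild type replicate 2 lay above 2 of the 3 mutant arrays, and the log2 change of 0.53 (SE 0.25) had a limma adjusted p of 0.318. Between arrays of the same replicate number, mRpS28 was higher in the mutant by 0.53, 0.24 and 0.83, and with the number as a block its limma adjusted p was 0.127. mRpS18C, a relative of bacterial S18, had 9.81, 10.53 and 9.68 in wild type and 10.32, 10.50 and 10.34 in the mutants. Here wild type replicate 2 lay above all mutant arrays, and the log2 change was 0.38 (limma adjusted p = 0.452). Without wild type replicate 2, both rose by limma, with log2 changes of 0.80 for mRpS28 (adjusted p = 0.037) and 0.65 for mRpS18C (adjusted p = 0.0291). In that fit 3.22% of all probe sets were higher. Over all fits without 1 array, the log2 change went down to 0.37 for mRpS28 and 0.22 for mRpS18C. Their limma adjusted p went up to 0.589 and 0.707, so these rises rest on which array is left out. mRpS34, mRpS14 and mRpS21 followed with log2 changes of 0.19, 0.17 and 0.15, all with overlapping groups.

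In the large subunit, mRpL32, whose relative in yeast and mouse mitochondria is cut by a protease before it joins the ribosome, had the most negative value. Its log2 signal was 10.16, 10.53 and 10.03 in wild type and 9.57, 9.66 and 9.65 in the mutants, without overlap. The log2 change was −0.61 (SE 0.14, limma adjusted p = 0.0764). mRpL12, a protein of the stalk to which elongation factors bind, had 11.23, 11.37 and 11.16 in wild type and 10.68, 10.85 and 10.98 in the mutants (log2 change −0.41, SE 0.12, limma adjusted p = 0.119). The groups were again separate. mRpL54 and mRpL38 had log2 changes of −0.30 and −0.25, and mRpL45, which in mammals anchors the ribosome to the inner membrane, of −0.24. Of these, mRpL38 alone had groups that did not overlap.

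**Figure D2:**
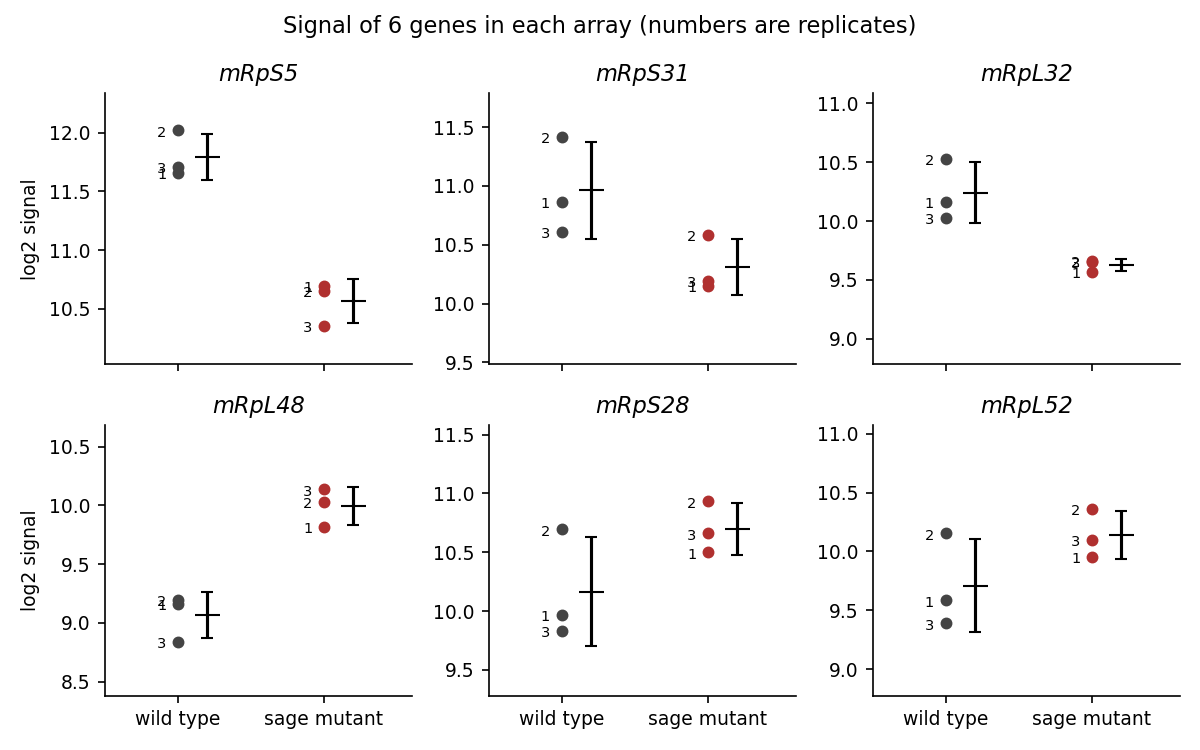
The log2 signal of 6 genes is plotted for each array, numbered by replicate, with the group mean and SD beside the points, and every panel spans the same height in log2 units. mRpS5, mRpS31 and mRpL32 in the upper row have lower mutant arrays, and in mRpS28 and mRpL52 of the lower row wild type replicate 2 reaches the mutant range, while in mRpL48 it does not.

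The large subunit genes with the most positive values after mRpL48 were mRpL52, mRpL35, mRpL18 and mRpL55. mRpL52, a protein without a bacterial relative, had 9.58, 10.15 and 9.39 in wild type and 9.96, 10.36 and 10.10 in the mutants (log2 change 0.43, SE 0.22, limma adjusted p = 0.365). Wild type replicate 2 again lay within the mutant range. Between arrays of the same number the differences were 0.37, 0.21 and 0.71, and the limma adjusted p with the block was 0.163. mRpL35 had 9.72, 10.14 and 9.70 in wild type and 10.20, 10.15 and 10.27 in the mutants, with groups that nearly touched (log2 change 0.35, SE 0.14, limma adjusted p = 0.25). mRpL35 rose by limma when wild type replicate 2 was left out (log2 change 0.50, adjusted p = 0.0423), a fit in which 3.22% of all probe sets were higher. Over all fits without 1 array, its log2 change went down to 0.27 and its limma adjusted p up to 0.558. mRpL18, whose bacterial relative binds the smallest ribosomal RNA, had 9.66, 9.72 and 9.55 in wild type and 9.87, 9.92 and 10.09 in the mutants, which did not overlap, and its log2 change of 0.32 had an SE of 0.10 and a limma adjusted p of 0.169. mRpL55 had a log2 change of 0.29 with overlapping groups (limma adjusted p = 0.39).

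The strongest shared feature of these genes was variation between arrays of the same genotype. In wild type, replicate 2 gave the highest of the 3 signals for 64 of 69 genes, or 92.8%, against 50.4% of all genes, and replicate 3 gave the lowest for 53, or 76.8%, against 37.2%. The exceptions in replicate 2 were mRpL1, mRpL13, mRpS2, mRpS9 and mRpS30. In the mutants, replicate 1 gave the lowest signal for 56 genes, or 81.2%, against 32.7% of all genes, and replicate 2 the highest for 46, or 66.7%, against 35.6%. Replicate 2 was thus the high array for most members in both genotypes. The median deviation from the group mean was 0.39 in wild type replicate 2 and −0.24 in wild type replicate 3. In the mutants it was −0.14 in replicate 1 and 0.15 in replicate 2. Genes with a mean signal between the lower and the upper quartile of the members, 803 in all, deviated by 0.08 in wild type replicate 2 and by 0.04 in mutant replicate 1.

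**Figure D3:**
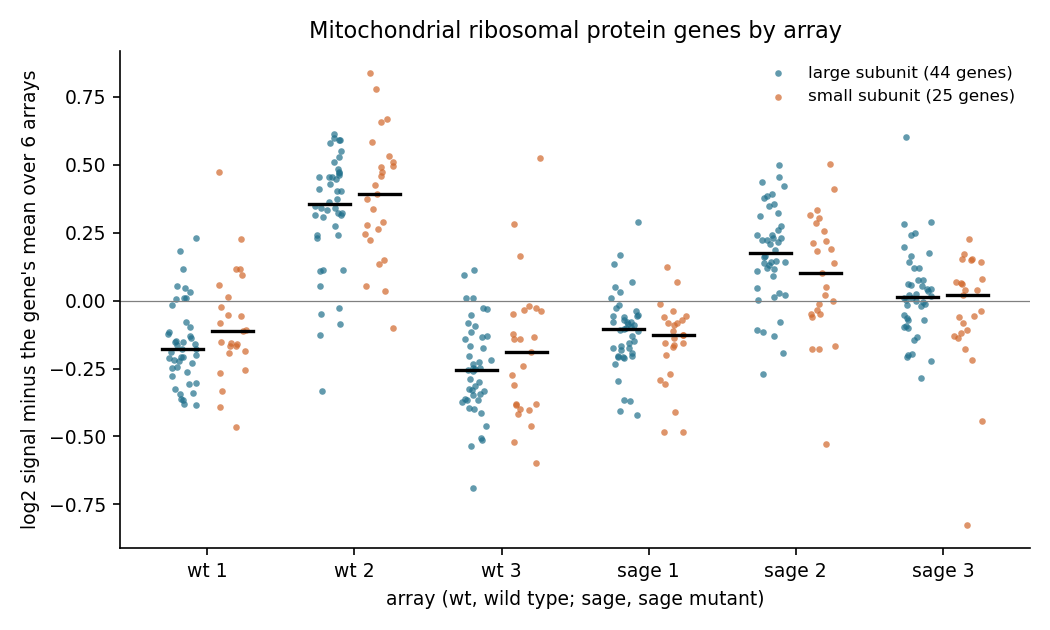
Each point is a gene, placed by its log2 signal in 1 array minus its mean over the 6 arrays, with black bars for the medians of each subunit. Both subunits lie high in wild type replicate 2 and low in wild type replicate 3, where the median deviations from the group mean were 0.39 and −0.24 over all 69 genes.

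Both subunits took part in this variation, with wild type replicate 2 highest for 42 of 44 large and 22 of 25 small subunit genes. The 5′ minus 3′ difference of the controls was −1.76 in wild type replicate 2 and −1.88 and −1.89 in replicates 1 and 3. In the mutants, replicate 1 had both the most negative 5′ minus 3′ difference, −4.35 against −3.51 and −3.17, and the lowest members. Mutant replicate 3 had the least negative difference but not the highest members, whose mean was 10.35 there and 10.49 in mutant replicate 2. The part of RNA quality in either pattern was not tested. The median within-group SD was 0.28 over the 69 genes and 0.20 over all genes. It was 0.25 over the 803 genes with a mean signal between the members' quartiles. Among the members the SD ran from 0.07 for mRpS30 to 0.43 for mRpL46. mRpL17 at 0.42, mRpS26 at 0.42 and mRpS14 at 0.39 were also among the most variable members.

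Since the members moved together between arrays, each array's mean over the 69 genes was also subtracted, a step chosen after the values were seen. The median within-group SD then dropped from 0.28 to 0.12. The subtracted mean is made of these same genes, so the drop follows from their shared movement and is no separate result. On this relative scale the groups did not overlap for 11 members that were lower and 14 that were higher, 15.9% and 20.3%. The same subtraction left 8.06% of all genes lower and 10.8% higher without overlap. But it removes a variation that the members share and other genes need not, so those shares are no fair measure for the members. The counts of 11 and 14 are thus descriptions only. The 11 lower were mRpS5, mRpS31, mRpL32, mRpL12, mRpS17, mRpS29, mRpS33, mRpL54, mRpL38, mRpL45 and mRpL3. The 14 higher were mRpL48, mRpS28, mRpL52, mRpS18C, mRpL35, mRpL55, mRpL21, mRpL33, mRpL4, mRpS34, mRpL40, mRpL22, mRpL28 and mRpL30. mRpS28, for example, stood at −0.25, −0.0037 and −0.29 relative to the members' mean in wild type and at 0.28, 0.44 and 0.31 in the mutants. mRpL52 stood at −0.63, −0.54 and −0.73 in wild type and at −0.27, −0.13 and −0.25 in the mutants. Relative to the other members, both were thus higher in all mutant arrays.

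The large subunit genes had a median log2 change of 0.07 and the small subunit genes of 0.01, which differ by 0.06. Without 1 array this difference of the medians ran from 0.0126 (without wild type replicate 1) to 0.126 (without wild type replicate 2), and both medians were negative when mutant replicate 2 or either of wild type replicates 1 and 3 was left out. 17 of 44 large and 12 of 25 small subunit genes had negative values. By subunit means, the log2 change was 0.06 for the large and −0.07 for the small subunit, a difference of 0.13. The mean of the large minus the mean of the small subunit was −0.20, −0.19 and −0.20 for the wild type arrays and −0.09, −0.06 and −0.07 for the mutant arrays. Its size in 1 array depends on the probe sets, and only the difference between arrays can be read. The group means of this value were −0.20 ± 0.01 and −0.07 ± 0.02 (SD, n = 3 each), so that the shared variation between arrays largely cancelled and the groups did not overlap. Without mRpS5 and mRpL48 the difference was 0.06, from −0.12 ± 0.01 to −0.06 ± 0.02 (SD, n = 3 each), less than it was with them, and the groups still did not overlap. This separation holds for means only. With the median signal of each subunit in each array, large minus small overlapped between the groups. Those medians differed, mutant minus wild type, by 0.0225 for the large and 0.0201 for the small subunit. No p-value is given, since the genes are not replicates. The 5′ minus 3′ value of the controls also separated the genotypes, at −1.84 in wild type and −3.68 in the mutants. Its part in the separation of the means cannot be told apart from genotype. In mammalian ribosomes the proteins named mRpS18A and mRpS30 lie in the large subunit, and with both counted there the difference of the means was 0.12.

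**Figure D4:**
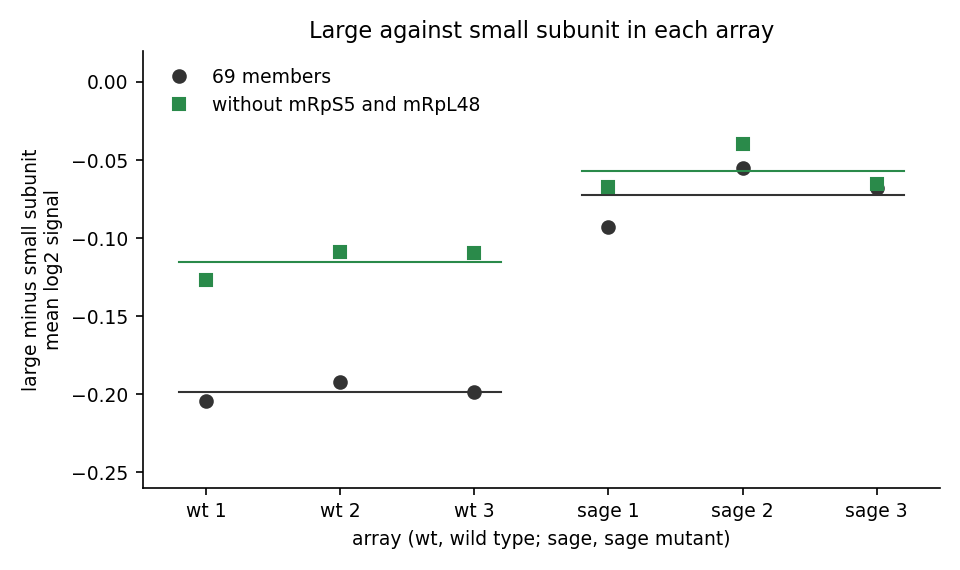
The mean log2 signal of the large subunit genes minus that of the small subunit genes is plotted for each array, with lines for the group means, for all 69 genes and for the 67 without mRpS5 and mRpL48. With all genes, wild type arrays lie near −0.20 and mutant arrays between −0.09 and −0.06, and the gap is smaller without the 2 genes. With subunit medians in place of means, which are not plotted, the groups overlap.

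Proteins with a bacterial relative and those found in mitochondria only were also set side by side, by a division from general knowledge that leaves out mRpL55, mRpS18A, mRpS18B, mRpS28 and mRpS30. The 40 genes with a bacterial relative had a median log2 change of 0.05 and the 24 without had −0.01. 1 of the first, mRpS5, fell and 1 of the second, mRpL48, rose. Over all genes, 2.1% fell and 2.88% rose, and single calls do not set the 2 divisions apart. By chromosome arm, 11 members lay on X, 12 on 2L, 10 on 2R, 17 on 3L and 19 on 3R, with median log2 changes of 0.06, 0.07, 0.03, 0.05 and −0.06. No member lay next to another in the RefSeq order of protein-coding genes. The second probe sets of mRpL47 and mRpS11 had log2 changes of 0.11 and 0.14, beside −0.06 and −0.07 at the brighter ones, and none of these passed the test.

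3 further genes whose products are part of the mitochondrial ribosome or bind it carry other names. tko and bonsai, which encode the small subunit proteins S12 and S15, had log2 changes of −0.14 and 0.10, and CRIF of 0.14 (limma adjusted p = 0.829, 0.764 and 0.602). Their median was 0.10 and their groups overlapped. None of 11 measured mitochondrial translation factors passed limma at an adjusted p under 0.05, with 2 at an unadjusted p under 0.05 (median log2 change −0.03). Over all genes, 12.1% were higher and 10.3% lower at that unadjusted p. The 2 factors were the recycling factor gene mRRF1, with a log2 change of 0.49, and the initiation factor gene mIF2, with 0.35 (limma adjusted p = 0.0945 and 0.256).

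Of 14 measured mitochondrial aminoacyl-tRNA synthetases, which load transfer RNAs for that ribosome, 1 fell and none rose, and 11 had negative values (median log2 change −0.13). Over all genes, 2.1% fell, 2.88% rose and 52.1% had negative values. The gene that fell was SerRS-m, at 8.03, 8.54 and 7.92 in wild type and 7.35, 7.20 and 7.24 in the mutants (log2 change −0.90, SE 0.17, limma adjusted p = 0.0433). With the replicate block its adjusted p was 0.0677, and it ran from 0.0627 to 0.183 when wild type replicate 1 or 3 or any 1 mutant array was left out. It passed under 9 of 18 alternatives. Of 9 measured genes of mitochondrial transcription and replication, none passed limma and 1, which was lower, had an unadjusted p under 0.05 (median log2 change −0.15). At that unadjusted p, 10.3% of all genes were lower. The list was led by the termination factor genes mTerf5 and mTTF, with log2 changes of −0.48 and −0.29 (limma adjusted p = 0.244 and 0.31).

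Of 73 measured genes of the respiratory chain and ATP synthase, in which the products of mitochondrial translation work, 1 fell and none rose (median log2 change 0.02). That was ATPsynbeta, the catalytic subunit of ATP synthase, at 13.20, 13.02 and 13.33 in wild type and 11.48, 11.54 and 11.68 in the mutants (fall of 3.06-fold, limma adjusted p = 0.0022). Of 92 listed ribosomal protein genes of the cytosol, 40 were measured, of which 1 fell and 2 rose (median log2 change 0.03). RpL27 fell 3.60-fold (limma adjusted p = 0.00194), while RpS28-like and RpL22-like rose 1.59-fold and 1.35-fold (limma adjusted p = 0.0451 and 0.0491). RpS28-like and RpL22-like were dim, with mean log2 signals of 5.40 and 6.12 over all arrays, beside a median of 14.09 over the list. With the replicate block the adjusted p of RpL22-like was 0.082, and without 1 array it was 0.0644 to 0.19, while that of RpS28-like was 0.0602 to 0.182. RpL22-like passed under only 2 of 18 alternatives and RpS28-like under 7 of 17. Single calls in lists of 73 and 40 genes stand beside 2.1% of all genes that fell and 2.88% that rose. The list of 73 also held dim genes, down to a mean log2 signal of 3.87 for COX7AL. Of 6 measured regulators of the salivary gland, sage itself fell, and the others did not pass. All 6 had negative values (median log2 change −0.34), against 52.1% of all genes. With sage, 3 were lower at an unadjusted p under 0.05, against 10.3% of all genes. The log2 change was −0.99 for sens and −0.39 for eyg (limma adjusted p = 0.2 and 0.207).

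The array pattern of the mitochondrial ribosomal protein genes was shared in part by these lists. Wild type replicate 2 was the highest array for 53 of 73 respiratory chain and ATP synthase genes, 72.6%, with a median deviation of 0.17 beside 0.39 for the mitochondrial ribosomal protein genes. The mean signals of the 73 genes ran from 3.87 to 13.77, and those of the mitochondrial ribosomal protein genes from 8.67 to 11.41. These deviations are thus not compared at like signal. Wild type replicate 2 was the highest for 65% of the ribosomal protein genes of the cytosol, with a median deviation of 0.05. The 40 measured of 92 listed cytosolic genes were very bright, with a median mean signal of 14.09. Their highest was 14.79, close to 14.82, the highest of all probe sets. Near the top of the scale differences may be compressed, which was not tested. The mitochondrial aminoacyl-tRNA synthetases deviated by 0.21 and the translation factors by 0.28 in wild type replicate 2. In mutant replicate 1, 49 of 73 respiratory chain and ATP synthase genes were lowest, but only 1 of 14 synthetases.

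**Figure D5:**
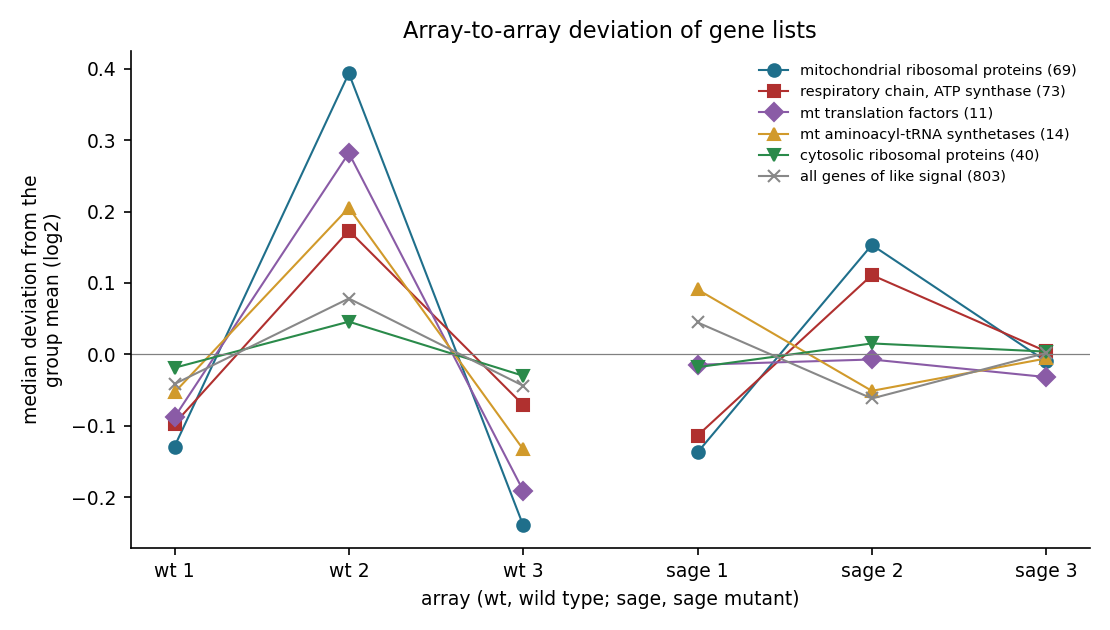
The median deviation of each gene list from its group mean is plotted by array on a log2 scale, with the number of genes in brackets and mt for mitochondrial. The lists differ in mean signal. The mitochondrial ribosomal protein genes have the highest point of these lists in wild type replicate 2, at 0.39, and run with the respiratory chain list in the mutants, at −0.14 and −0.11 in replicate 1.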

How the data were processed

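For each array the deposited table holds a log2 value for every probe set, which the authors made with RMA and Partek per the submitters' processing notes. Their versions are not given in the sources used here. The base of the logarithm was taken from the usual output of RMA, which includes background correction and quantile normalization, and from the range of the values. Equal distributions imposed between arrays can hide a change common to most genes. Of 18952 rows, 183 control probe sets were left out of the test, except for the 5′ minus 3′ difference over 5 pairs of Drosophila controls. Gene names came from the platform annotation, updated through the RefSeq table of Release 6 plus ISO1 MT, in which 11894 of 11982 genes were found. The files name no genome build, so no coordinates are given.

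Each of 18769 probe sets was tested by a linear model with group alone as its term (lmFit and eBayes of limma 3.58.1, R 4.3.3), with Benjamini-Hochberg adjustment and a threshold of 0.05. The labels do not say whether replicates were collected separately, and p-values therefore speak only of the spread among the 6 arrays, part or all of which may be technical. The number of arrays limits the precision. In a simulation of 18769 probe sets, 200 of them changed, 59% of shifts of 1 and 88% of shifts of 2 on the log2 scale were recovered, and 9 of 156 calls were false. Its noise was independent between probe sets and arrays, unlike the variation shared by genes in these data. The simulated rates therefore need not hold here. Promoter motifs were not analysed here.

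The members, lists, tests and alternatives were chosen with earlier results of these data known. Named genes were those past the threshold, the 5 highest and 5 lowest changes and the 2 most variable genes of each subunit, and of each related list those that passed, or the 2 with the smallest p where none did. Others were named after their values were seen. Replicate numbers come from the titles of the samples. After subtraction of the group means, deviations correlated at 0.17, 0.28 and 0.31 for arrays of the same number and at −0.30 to 0.14 for others. Such deviations depend on one another, and so do these correlations. The labels state no pairing, so the main test had group alone, and only the replicate block took the numbers as pairs.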

Additional observations from a re-analysis of the deposited data

How the results depend on the processing

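mRpS5 passed under 14 of 18 alternatives and mRpL48 under 11, with log2 changes from −1.87 to −1.11 and from 0.81 to 1.87. With array weights, in which wild type replicate 2 had a weight of 0.265 and replicate 1 of 3.97, 3 members (mRpS5, mRpS31 and mRpL32) were lower and 8 higher, beside 6.55% and 8.03% of all probe sets. With the replicate block, 1 member was lower and 0 higher by limma, where mRpL48 had an adjusted p of 0.0548. The block also ended the calls of SerRS-m and RpL22-like and no other call named in the text. Quantile normalization and centring gave adjusted p-values of 0.0654 and 0.0853 for RpL22-like and of 0.0609 and 0.0565 for RpS28-like, and quantile normalization 0.055 for SerRS-m. RpL22-like was also lost with both filters on dim probe sets, with trend and robust variance and with 1 value per gene (0.0591 to 0.135). With the 5′ minus 3′ value of the controls as a covariate, alone or with the block, 0 members and 0 of 18769 probe sets passed limma in either direction, so that these fits cannot single out genes. Leaving out 1 array gave 0 to 1 lower and 0 to 4 higher members, the 4 without wild type replicate 2. Of all probe sets, 2.7% were lower and 3.22% higher in that fit, and 0.33% to 0.389% in each direction without mutant replicate 2 or 3.

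The median log2 change was 0.48 for the large and 0.30 for the small subunit with that covariate, and 0.39 and 0.32 with the block as well. The covariate did not overlap between the genotypes, which limits what these fits can show. Without 1 array the median log2 change ran from −0.06 to 0.27 for the large and from −0.11 to 0.14 for the small subunit. The difference of the subunit medians was 0.15 with array weights and 0.18 with the covariate, and between 0.0126 and 0.126 without 1 array. The difference of the means was 0.17 with the covariate, 0.16 with the covariate and the block, 0.0578 without mRpS5 and mRpL48, and 0.12 to 0.14 without 1 array.

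Signs turned only for genes that did not pass. With the covariate, log2 changes were 0.0729 for mRpL12, 0.76 for mRpL46, 0.29 for mRpL54, 0.29 for mRpS17 and 0.15 for mRpS33. With the block as well, they were 0.13, 0.45 and 0.16 for the first 3. Centring gave −0.0255 for mRpL17, and array weights 0.0476 for mRpL46. Without 1 array, mRpL17 ran from −0.15 to 0.35, mRpL46 from −0.33 to 0.16, mRpS21 from −0.0442 to 0.43 and mRpS26 from −0.0736 to 0.387. The causes were not tested. Filters on dim probe sets, quantile normalization, other variance models, gene averages and platform symbols left the counts of members called at 1 and 1.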
